A study of Acipenser transmontanus and Acipenser medirostris with 18 samples.

Results

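Type II keratins are the basic partners of the acidic type I keratins, and the filaments of an epithelial cell are built from pairs of both. In the stratified epithelia of fish and mammals these filaments fill the cytoplasm and are anchored at desmosomes, and the keratins made differ between cell layers and sites. ON3 is the name of an intermediate filament protein described from the goldfish optic nerve, which belongs to the type II keratins. In mammals most type I and type II genes lie in separate clusters, in which neighbouring genes of a type are often similar copies.

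The study's accession list names 2 loci of the PacBio Iso-Seq table, PB.25399 and PB.25558, KRT8-like. It states no keratin type, and they are called type II here because mammalian KRT8 is a type II keratin. By the same reading PB.20745, PB.20748 and PB.22701 (KRT19-like) and PB.22698 (KRT13-like) are called type I, and PB.25257, whose name in the list gives no such gene, was counted with them. All transcripts numbered under these loci were taken, which gave 91 of the 70537 transcripts of the table. PB.25399 had 24 transcripts with 908 counts and PB.25558 had 67 with 9523 counts. The names in the table were "keratin" for 20 transcripts of PB.25399 and 43 of PB.25558, and ON3-like for 3 and 18. The table gives no keratin type either, and 1 transcript of PB.25399 and 6 of PB.25558 had no sterlet protein name.

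The 18 libraries came from 1 green sturgeon culture of fibroblasts and adipocytes from a female, 6 green sturgeon epithelial cultures, 5 white sturgeon epithelial cultures and 6 white sturgeon tissues. Green sturgeon is Acipenser medirostris and white sturgeon is Acipenser transmontanus. The green cultures were from the ampullae of Lorenzini (AF, female, and GA1, sex not given), the upper palate (IM, male, and IF, female), the mouth rim (MM, male) and the esophagus (EM, male). The white cultures were from the mouth rim (WM, W8 and the dodecaploid W12) and skin (WS1 and WS2), and the tissues were 1 library each of barbel, ampullae, mouth rim, upper palate, dorsal skin and esophagus. All libraries other than W12 were labelled octoploid. The epithelial cultures were grown as explants in serum medium with the rho kinase inhibitor Y27632, epidermal growth factor, insulin and hydrocortisone, with trypsinization first for green tissue only. Which fish a library came from is not in the labels, and p-values therefore cover only the spread between these libraries. The libraries are numbered in 3 sets. The first holds GA1 and the white cultures, the next holds the fibroblast and adipocyte library and IM, MM, EM, IF and AF, and the last holds the tissues. Library set and culture or tissue therefore cannot be told apart in white sturgeon. In bulk RNA, fewer cells of a type and less RNA per cell cannot be told apart.

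The fibroblast and adipocyte library had 243012 counts in total. Green cultures had 124136 to 302286 counts, white cultures 90002 to 129568 and white tissues 29797 to 204203. The labelled types were checked against marker lists. The 22 other keratin loci summed to 0.0905% of the fibroblast and adipocyte library, 0.829% to 9.56% of green cultures, 3.57% to 9.54% of white cultures and 3.55% to 17.0% of tissues. The 19 connective tissue and fat loci summed to 3.28% of the fibroblast and adipocyte library, 0.119% to 0.717% of green cultures, 0.121% to 0.256% of white cultures and 0.0465% to 0.0965% of tissues. In the fibroblast and adipocyte library this was mostly decorin, with 6703 counts of PB.13114 and 802 of PB.7475. Perilipin-1 (PB.16607) had 0 counts there, 0 in green cultures and 66 in white cultures. Perilipin-2 (PB.2193) had 180 there and 898 in all green cultures together, and perilipin-3 (PB.28494) had 118 and 380. These sums are not set against library totals, so this list does not settle the adipocyte part of the label. The highest green culture on that list was GA1, which also had 287 counts of the vimentin-like locus PB.3825 (0.214%), against 0 to 16 counts in the other 5 green cultures. Vimentin is the intermediate filament of fibroblasts and other mesenchymal cells. Each full-length read is counted once for its transcript, so shares are not divided by length, but the reads were amplified and levels of different loci are comparable only as shares of reads.

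The counts of PB.25558 came mostly from 3 sterlet proteins. XP_033857126.2, ON3-like isoform X1, held 48.1% of them in 15 transcripts, XP_034769968.1, a keratin, held 32.6% in 18 transcripts, and XP_033857127.2, a keratin with a low-quality sterlet entry, held 16.4% in 8. The transcripts of XP_034769968.1 carried the numbers 2 to 37 of the locus and those of the other 2 proteins the numbers 289 to 1076. At PB.25399, 7 transcripts of XP_033857131.2 held 84.6% of the counts and 6 of XP_034769678.1 held 7.38%. Of the 12 sterlet proteins named at either locus, 5 were named at both, and none of the 12 was named at a locus outside the pair. Reads of near-identical copies could therefore have been assigned to either locus, and the split between them is uncertain. Both loci were spread over many transcripts: the largest, PB.25558.916 and PB.25399.89, held 16.0% and 25.7% of their locus.

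Both type II loci were lower in white sturgeon cultures than in white sturgeon tissues. Barbel, ampullae, upper palate and esophagus had tissue but no white culture. For the mouth rim and skin, the labels do not say whether cultures and tissues came from the same fish. PB.25558 took 0.0972%, 0.134%, 0.157%, 0.206% and 0.198% of the counts of the cultures WM, WS1, WS2, W12 and W8, against 0.883% in barbel, 1.86% in ampullae, 0.924% in upper palate, 0.996% in mouth rim, 0.332% in esophagus and 0.803% in dorsal skin. The highest culture was below the lowest tissue. The mean was 0.158% ± 0.0454 in cultures (SD, n = 5) and 0.967% ± 0.498 in tissues (SD, n = 6). PB.25399 took 0.00724%, 0.0178%, 0.0233%, 0.0453% and 0.0393% of the same cultures, against 0.0764%, 0.218%, 0.106%, 0.0908%, 0.0336% and 0.0708% of the tissues in the order given. Cultures W12 and W8 lay above the esophagus, where the locus had only 10 counts, and all other cultures lay below all tissues. The mean was 0.0266% ± 0.0156 in cultures (SD, n = 5) and 0.0992% ± 0.0629 in tissues (SD, n = 6).

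**Figure D1:**
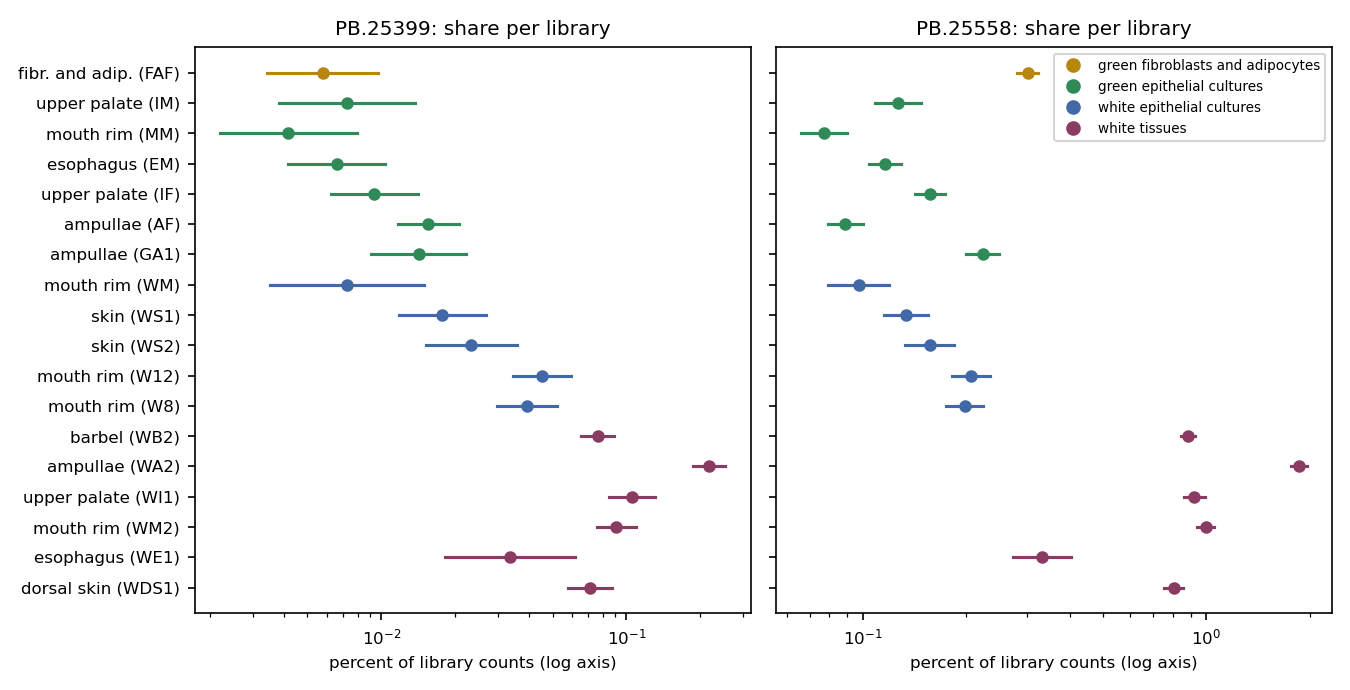
Share of PB.25399 and PB.25558 in each library, in percent of all counts on a log axis, with Wilson 95% intervals as lines (counting error only). Colours mark the 4 kinds of library; white cultures had 0.0972% to 0.206% of PB.25558 and white tissues 0.332% to 1.86%, without overlap.

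In edgeR's quasi-likelihood test on locus counts, PB.25558 fell by 2.95 on the log2 scale in cultures (SE 0.507, adjusted p = 0.000143) and PB.25399 fell by 2.23 (SE 0.534, adjusted p = 0.00199). Lower loci were common in this comparison: 29.3% of the 1863 loci tested were called lower in cultures, and the median over all of them was -0.04. Of the called loci 48.5% were higher in cultures, against 59.7% with library totals alone (median 0.27) and 56.7% with DESeq2 (median 0.20), and both type II loci were called lower under each scaling. The two-sided exact permutation test of the shares gave p = 0.00433 for PB.25558 and p = 0.0152 for PB.25399, with adjusted p = 0.0138 and 0.0348 over all loci, where 16.3% of loci were called lower (20.4% at an unadjusted p under 0.05). Of the loci counted as type I, PB.22701 at -0.42 (edgeR adjusted p = 0.691) and PB.22698 at -1.01 (edgeR adjusted p = 0.423) did not pass. PB.25257 had a fitted difference of -7.62 (SE 0.974), on 34 counts in white cultures against 5048 in white tissues. It passed the count filter through the tissues and so had to differ, and this value is a description. The immune list of 18 loci summed to 0.0281% to 0.0610% of white cultures against 0.111% to 0.568% of white tissues. A single locus, PB.14131, held 1790 of the 2366 counts of this list, with 1770 in white tissues and 5 in white cultures. The 2 loci of the list that were tested went opposite ways. PB.14131, HLA class II histocompatibility antigen gamma chain-like, had a fitted difference of -8.38. The other, PB.18123, immunoglobulin-binding protein 1-like, had a fitted difference of 3.61 (SE 0.473), on 221 counts in white cultures against 16 in white tissues. Each of these loci passed the count filter through the group where it was high, so both values are descriptions. PB.18123 entered the list through the word immunoglobulin in its name, which does not make it a marker of immune cells. The part of other cell types in the difference between white cultures and tissues was not tested.

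Within PB.25558, the main protein groups all fell, with fitted differences of -3.55 to -1.92 (these groups were chosen after the counts were seen). The ON3-like XP_033857126.2 averaged 0.0655% ± 0.0172 in white cultures (SD, n = 5) and 0.586% ± 0.361 in white tissues (SD, n = 6), and fell by 3.55 on the log2 scale (SE 0.550, edgeR adjusted p = 3.7e-05). XP_033857127.2 averaged 0.0285% ± 0.00699 in white cultures and 0.187% ± 0.119 in white tissues, and fell by 3.11 (SE 0.519, edgeR adjusted p = 7.4e-05). XP_034769968.1 averaged 0.0575% ± 0.0214 in white cultures and 0.159% ± 0.0836 in white tissues, and fell by 1.92 (SE 0.497, edgeR adjusted p = 0.00300). Here the groups overlapped, since the barbel had 0.0617%. At PB.25399, XP_033857131.2 had 6 to 46 counts in each white culture against 9 to 159 in each white tissue, with a fitted difference of -2.49 (SE 0.554). The share of all such protein groups called lower was 29.9%.

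The make-up of PB.25558 differed between white cultures and most white tissues. XP_034769968.1 was 34.0%, 27.7%, 40.4%, 38.8% and 37.2% of the locus in WM, WS1, WS2, W12 and W8, against 6.99% in barbel, 9.62% in ampullae, 13.4% in mouth rim, 15.6% in dorsal skin, 33.6% in upper palate and 42.4% in esophagus. The upper palate and the esophagus lay within the range of the cultures or above it, and the other 4 tissues lay below it. The transcript usage test of edgeR, which compares the transcripts of a locus with each other, called PB.25558 over 14 transcripts. Of the 189 loci tested, 34.9% were called. Many of the transcripts passed the count filter through the tissues alone, which favours a difference, so no p is given and the call is a description. For PB.25399 it gave adjusted p = 0.509 over 4 transcripts.

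**Figure D2:**
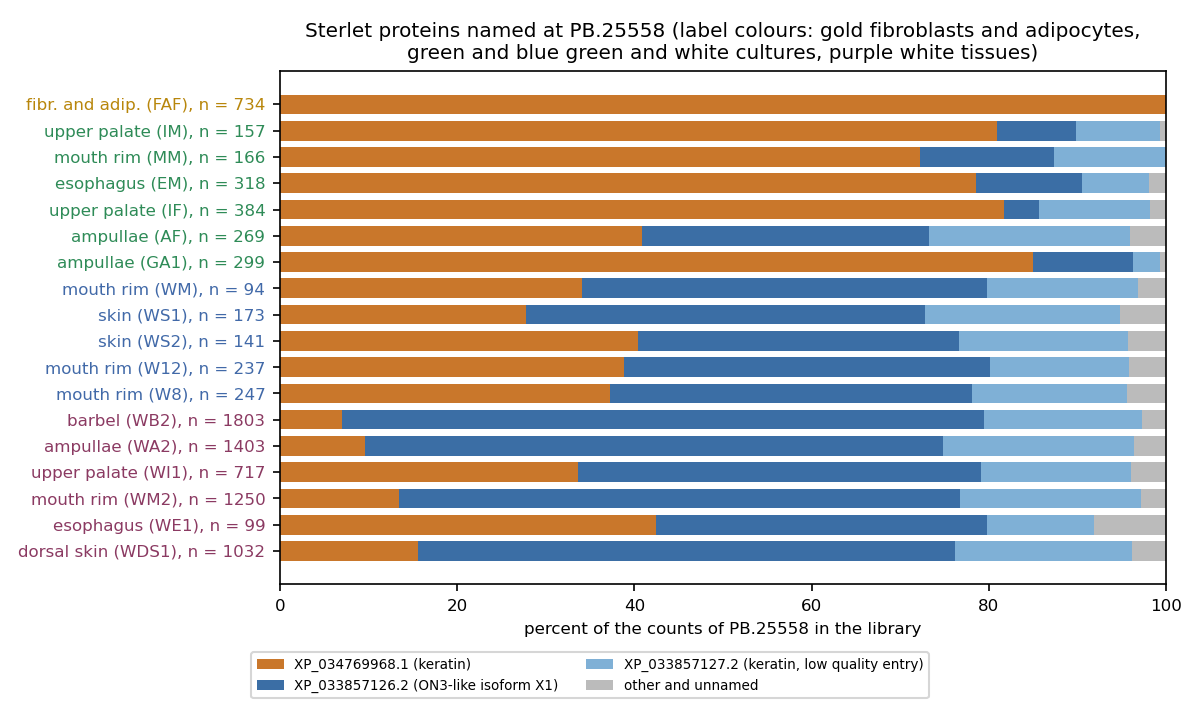
Percent of the counts of PB.25558 by sterlet protein in each library, with n the number of counts. The XP_034769968.1 segment is 100% of the fibroblast and adipocyte library, 40.9% to 84.9% in green cultures, 27.7% to 40.4% in white cultures and 6.99% to 42.4% in white tissues.

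Of the 91 transcripts, 18 had enough counts to be tested in white sturgeon, and many of them passed the filter through the tissues alone. These had to differ, so their count and their fitted differences are a description, and a p is given only for transcripts with over 10 counts in every white culture. Lower levels in cultures were called for 17 of the 18, where 32.5% of all 1542 transcripts tested were called lower. The exception was PB.25558.10, the leading transcript of XP_034769968.1. It had 24, 35, 44, 58 and 67 counts in WM, WS1, WS2, W12 and W8, or 0.0248% to 0.0538%, against 12 to 59 counts in tissues, or 0.0257% to 0.0470%. Its log2 difference was -0.53 (SE 0.426, edgeR adjusted p = 0.289), and the groups overlapped along most of their range. PB.25558.25, which carries the same protein name, had a fitted difference of -3.73 (SE 0.624), with a sum of 32 counts over 5 cultures against 239 over 6 tissues. The difference between these transcripts was not tested on its own.

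Among the ON3-like transcripts the fitted difference also ranged widely. PB.25558.916 had 0.00414% to 0.0322% of white cultures (median 0.00778%), against 0.0503% to 0.492% of white tissues (median 0.181%), with a fitted difference of -4.4 (SE 0.694). PB.25558.850 had 0.00333% to 0.00620% of white cultures, against 0.0235% to 0.226% of white tissues, with a fitted difference of -5.16 (SE 0.589). PB.25558.830 was closer between the groups, with 0.0165% to 0.0417% of white cultures against 0.0302% to 0.151% of white tissues, and fell by 2.09 (SE 0.459, edgeR adjusted p = 0.000713). The largest fitted difference among the 18, -6.51 for PB.25558.956 (singled out after its value was seen), rested on 1 count in the 5 white cultures and 100 in the 6 tissues. PB.25558.867 had a fitted difference of -3.91. PB.25558.367, the leading transcript of XP_033857127.2, had 11 to 19 counts in each white culture against 4 to 165 in each tissue and fell by 3.15 (SE 0.526, edgeR adjusted p = 5.4e-05).

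At the other locus the fitted log2 difference was -3.85 for PB.25399.119, -3.72 for PB.25399.129, -3.02 for PB.25399.273 and -2.32 for PB.25399.89, and these too are descriptions, since each had 0 to 2 counts in its lowest white culture. All carry XP_033857131.2. PB.25399.260 had 32 counts in white cultures and 80 in white tissues, and did not pass the filter. The pair of loci kept a nearly fixed proportion in tissues, with 1 count of PB.25399 to 8.53 to 11.5 of PB.25558. In white cultures it ranged more widely, from 1 to 4.52 up to 1 to 12.6, and the difference in log2 ratio of 0.57 had p = 0.0519 (two-sided exact permutation test, n = 5 and 6). Without culture WM, in which PB.25399 had 7 counts, the difference was 0.80 with an exact permutation p = 0.00476. The other 10 of 11 omissions of a library left it above 0.05, with an exact p of up to 0.114. Without W12 the difference was 0.43.

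**Figure D3:**
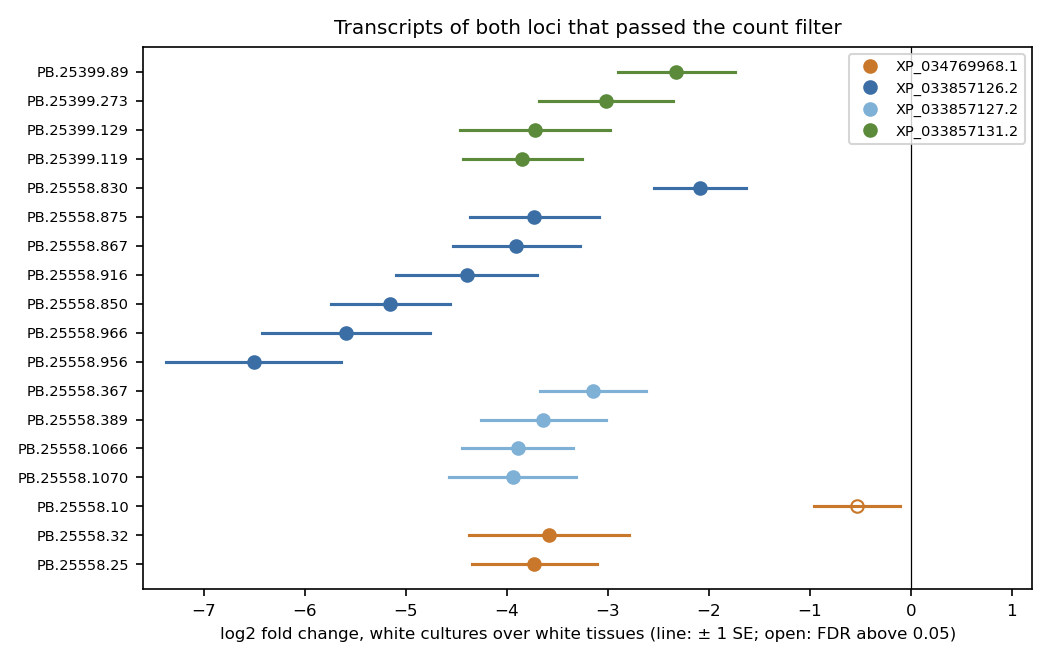
Log2 fold change of single transcripts, white cultures over white tissues, with a line of 1 SE to each side, coloured by sterlet protein. Filled points passed an FDR of 0.05, most of them after entering the test through the tissues; PB.25558.10 at -0.53 is the open point, and PB.25558.956 at -6.51 is the farthest from 0.

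By site, the order of PB.25558 in white tissue was ampullae, mouth rim, upper palate, barbel, dorsal skin and esophagus, from 1.86% down to 0.332%. The Wilson intervals of ampullae and esophagus were apart from all others, while neighbours from the mouth rim to the dorsal skin overlapped. PB.25399 was highest in ampullae (0.218%) and lowest in esophagus (0.0336%) too, where it rested on 10 counts. Its interval in ampullae was apart from all others, and every other neighbour in the order overlapped, esophagus with dorsal skin included. At each of the 5 sites with both, all cultures were below the tissue for both loci: PB.25558 had a mean of 0.156% in 2 ampullae cultures against 1.86% in ampullae tissue, 0.142% in 2 upper palate cultures against 0.924%, 0.145% in 4 mouth rim cultures against 0.996%, 0.145% in 2 skin cultures against 0.803% and 0.116% in the esophagus culture against 0.332%. The cultures of ampullae, upper palate and esophagus were green sturgeon, and the 4 mouth rim cultures included the green MM. All tissues were white, and with 1 tissue library a site was not tested.

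Green and white epithelial cultures differed in PB.25399 but not detectably in PB.25558 as a whole. They differ in species, in site (only the mouth rim is shared), in trypsinization and, other than GA1, in library set, and these cannot be told apart. PB.25399 took 0.00418% to 0.0155% of green cultures (median 0.00832%), against 0.00724% to 0.0453% of white cultures (median 0.0233%). The mean was 0.00952% ± 0.00448 in green cultures (SD, n = 6) and 0.0266% ± 0.0156 in white cultures (SD, n = 5), and the groups overlapped through WM. The locus was lower in green cultures, with a log2 difference of -1.58 (SE 0.465, edgeR adjusted p = 0.00928), where 28.4% of the 2125 loci tested were called lower. The exact permutation test of its share gave p = 0.0173, with adjusted p = 0.0340 over all loci, where 26.5% were called lower (28.8% at an unadjusted p under 0.05). In the first library set, with GA1 alone for green, the difference was -0.83 (edgeR adjusted p = 0.518), and in the mouth rim alone it was -2.86 (adjusted p = 0.0757).

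PB.25558 took 0.0771% to 0.223% of green cultures (median 0.121%), against 0.0972% to 0.206% of white cultures (median 0.157%). Its log2 difference was -0.38 (SE 0.325, edgeR adjusted p = 0.325), and the exact permutation test of the share gave p = 0.377. The fitted differences of the proteins under the locus had different signs. XP_033857126.2 took 0.00612% to 0.0288% of green cultures, against 0.0445% to 0.0853% of white cultures, without overlap, and was lower in green, with a log2 difference of -2.05 (SE 0.397, edgeR adjusted p = 0.000469). XP_033857127.2 was also lower, at -1.18 (SE 0.352, edgeR adjusted p = 0.00975), where 27.9% of protein groups were called lower. XP_034769968.1 averaged 0.101% ± 0.0546 in green cultures (SD, n = 6) and 0.0575% ± 0.0214 in white cultures (SD, n = 5), with a log2 difference of 0.73 (SE 0.410, edgeR adjusted p = 0.139). Without its transcripts, PB.25558 was lower in green cultures, at -1.79 (SE 0.319, edgeR adjusted p = 0.000243), a split chosen after the data were seen.

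**Figure D4:**
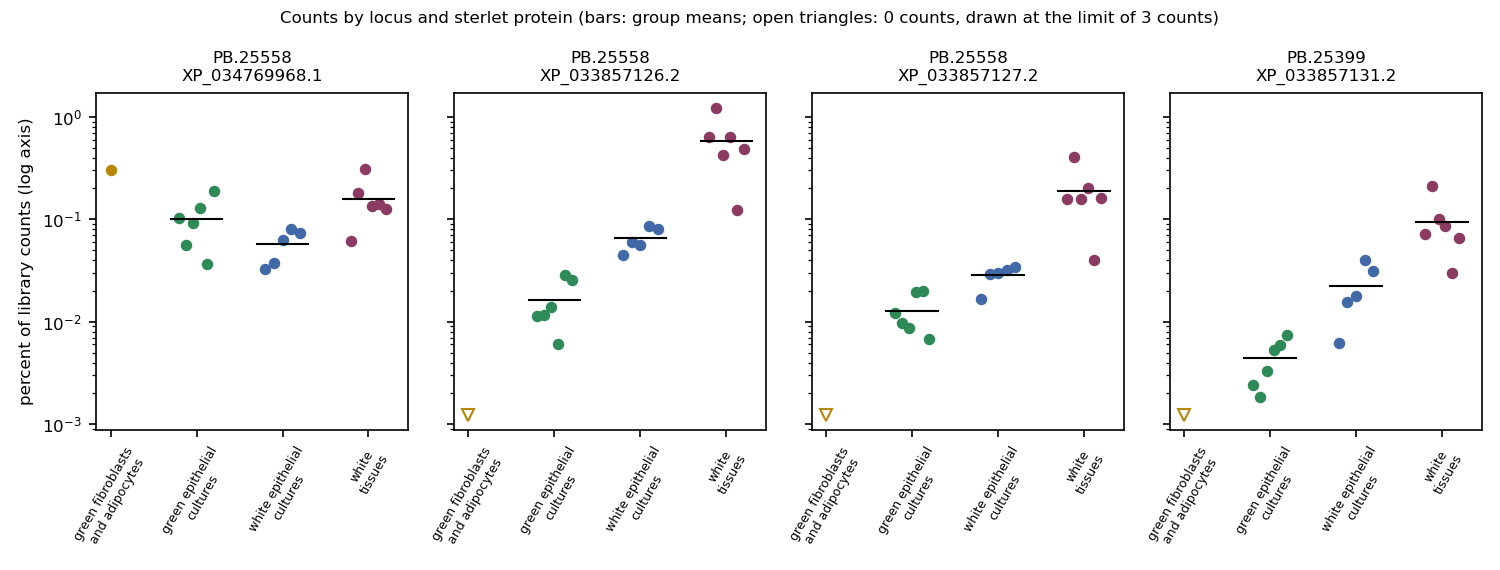
Share of the main locus and protein groups in each library, in percent of library counts on a log axis; bars are group means, and open triangles are 0 counts drawn at the limit that 3 counts set (0.00123%). XP_034769968.1 is 0.302% in fibroblasts and adipocytes, where the other 3 groups have 0 counts.

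The make-up of PB.25558 differed between green and white cultures. XP_034769968.1 was 80.9%, 72.3%, 78.6%, 81.8%, 40.9% and 84.9% of the locus in IM, MM, EM, IF, AF and GA1, against 27.7% to 40.4% in white cultures. AF lay just above the white range and the other 5 green cultures far above it. The usage test called the locus over 4 transcripts, with 52.5% of the 276 loci tested called. Of these transcripts, PB.25558.830 passed the count filter through the white cultures, which favours a difference, so the call is a description. AF and GA1 were both from ampullae, and 2 values moved apart between them: XP_034769968.1 was 0.0364% of AF and 0.190% of GA1, while the vimentin-like PB.3825 had 0 counts in AF and 287 in GA1. Whether fibroblasts in GA1 had a part in its level was not tested. Without GA1 the log2 difference of XP_034769968.1 was 0.43 (edgeR adjusted p = 0.344).

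Single transcripts were also compared between green and white cultures. Of the 4 member transcripts that could be tested, PB.25558.830 alone was called lower in green cultures, with 1 to 33 counts in each green culture against 16 to 52 in each white culture and a fitted difference of -3.03 (SE 0.648), where 29.6% of the 1988 transcripts tested were called lower. PB.25558.10 at 0.06 (edgeR adjusted p = 0.907), PB.25558.25 at 0.88 (adjusted p = 0.181) and PB.25558.367 at -0.82 (adjusted p = 0.0650) did not pass. A count of 1 in 4 called lower is no more than the share over all transcripts. PB.25558.9, singled out after its values were seen, had 98 counts in fibroblasts and adipocytes and 16 to 57 in each green culture, against 0 to 4 in each white culture and 0 or 1 in each white tissue. Since it was chosen for this pattern, no test of it is given. At PB.25399, the 6 transcripts of XP_034769678.1 had 14 counts in fibroblasts and adipocytes and 48 in the green cultures, against 3 in the white cultures and 2 in the white tissues. Its leading transcript, PB.25399.370, gave 12, 33, 1 and 1 of these. PB.25399.273, with 101 counts in white libraries, had 0 counts in all 7 green libraries. Because reads of both species were placed on the sterlet genome, a difference between species in the placing of reads is possible and was not tested.

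Most counts came from transcripts seen in both species. At PB.25558, 42 of 67 transcripts had counts in both, 2 in green sturgeon only (5 counts) and 23 in white sturgeon only (106 counts). At PB.25399, 12 of 24 had counts in both, 3 in green sturgeon only (16 counts) and 9 in white sturgeon only (128 counts). White libraries held more counts of both loci, 7196 of PB.25558 and 769 of PB.25399, against 2327 and 139 in green libraries. Only white sturgeon had tissue libraries. The same split over all transcripts is not given here, so these numbers are a description. PB.25558 had 16 transcripts with a count in fibroblasts and adipocytes, 18 to 30 in green cultures, 17 to 30 in white cultures and 24 to 43 in tissues. Thinned to 94 counts a library, the expected number was 10.3 in fibroblasts and adipocytes, 14.7 to 20.8 in green cultures, 17.0 to 21.2 in white cultures and 16.6 to 23.6 in tissues.

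The library of green fibroblasts and adipocytes held PB.25558 at 734 of 243012 counts, or 0.302% (Wilson 95% interval 0.281% to 0.325%), above every epithelial culture. The lowest tissue, the esophagus at 0.332%, rested on 99 counts, and its interval overlapped this one. The other tissues were higher. The pooled green epithelial cultures had 0.123%, and the ratio was 2.45 (counting interval 2.25 to 2.68). With 1 library there is no replicate check. All 734 counts were of XP_034769968.1, whose share was 3.33 times that of the green epithelial cultures (counting interval 3.03 to 3.65). The ON3-like XP_033857126.2 had 0 counts, against 14 to 87 in each green epithelial culture, which makes it at least 13.3-fold lower with the limit of 3 counts in this library. XP_033857127.2 also had 0, at least 11.1-fold lower. PB.25399 had 14 counts, 0.00576%, within the range of the green epithelial cultures, and all of them were of XP_034769678.1. All counts of both loci in this library thus carried 1 of 2 protein names.

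The loci counted as type I were at low or 0 counts in the same library. PB.22701, the most abundant keratin locus of the series, had 7 counts, against 543 to 26922 in the green epithelial cultures, and the type I loci PB.22698 and PB.25257 had 0, at least 143-fold and 27.3-fold lower than the pooled green cultures. The neighbouring number PB.25400, named keratin with no type in the table, had 213 counts (0.0877%), against 0.00232% to 0.0329% of green epithelial cultures. Between white cultures and white tissues PB.25400 had a fitted difference of 4.05 (SE 0.652), on 405 counts in cultures against 20 in tissues. It passed the count filter through the cultures and so had to differ, and this value is a description. It is not in the study's list, and its type is not known here.

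**Figure D5:**
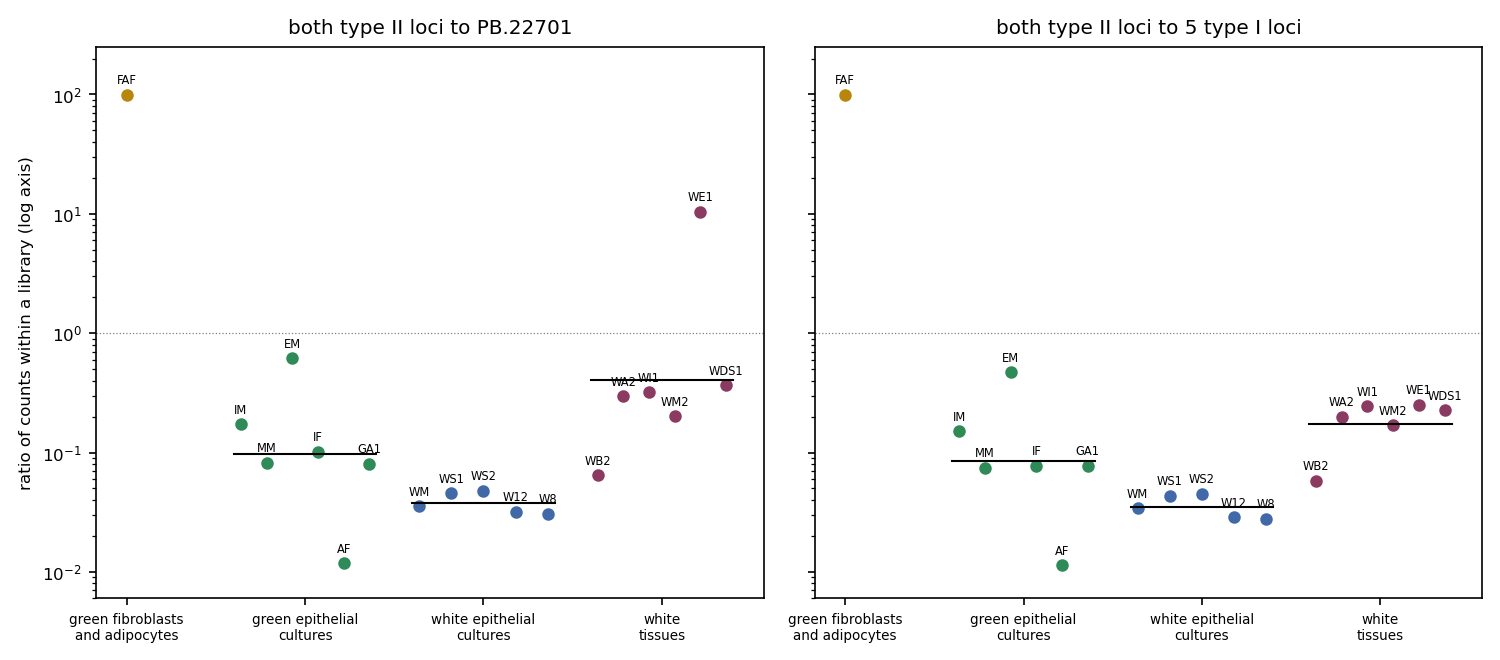
Counts of both type II loci over those of PB.22701 (left) and over 5 type I loci (right) within each library, with 0.5 added to each count, on a log axis; bars are geometric means and the dotted line is a ratio of 1. Against PB.22701 the fibroblast and adipocyte library (99.8) and the esophagus tissue (10.4) lie above 1, and against 5 loci the fibroblast and adipocyte library alone does.

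The ratio of type II to type I keratin within a library needs no library total (0.5 was added to each count). PB.22701 had 24.0 to 39.1 counts for each count of PB.25558 in white cultures, against 16.9 in barbel, 5.39 in mouth rim, 3.78 in ampullae, 3.50 in upper palate, 2.98 in dorsal skin and 0.106 in esophagus tissue. All white cultures had less PB.25558 per PB.22701 than all white tissues. The log2 ratio averaged -4.94 ± 0.33 in white cultures (SD, n = 5) and -1.43 ± 2.46 in white tissues (SD, n = 6), a difference of -3.51 (p = 0.00433, two-sided exact permutation test). Adjusted over all loci set against PB.22701 the p was 0.212, and none of the 1862 loci passed (0%), while 10.7% were lower at an unadjusted p under 0.05. For PB.25399 the difference was -2.94 (exact p = 0.0130, adjusted p = 0.263), and the groups overlapped, with 158 to 381 counts of PB.22701 for each count of PB.25399 in white cultures, against 194 in barbel.

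The esophagus tissue weighed on both values, since PB.22701 had only 10 counts in it. Without that library the differences were -2.58 for PB.25558 and -1.99 for PB.25399. With the 5 loci counted as type I summed, the esophagus had 4.37 such counts for each count of PB.25558 and lay among the other tissues. PB.20744, named keratin with 13552 counts, is not numbered in the study's list and was left out of this sum. It fell by 2.22 in white cultures against tissues (SE 0.624, edgeR adjusted p = 0.00599). PB.22701 itself ranged from 2.96% to 7.89% of white cultures and from 0.0336% to 14.9% of white tissues, so the groups overlapped in PB.22701 and not in PB.25558. Of the other loci counted as type I, PB.25257 did not overlap, with a mean of 0.00678% in white cultures and 0.961% in white tissues. PB.20745, PB.20748 and PB.22698 overlapped.

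Among cultures, PB.22701 had 1.71 counts for each count of PB.25558 in green EM, 6.14 in IM, 10.4 in IF, 12.9 in MM, 13.2 in GA1 and 99.9 in AF, against 24.0 to 39.1 in white cultures. AF lay below the white range in type II per type I and the other 5 green cultures lay above it. The log2 difference of 1.47 had p = 0.136 (two-sided exact permutation test, n = 6 and 5). Without each library in turn it was 0.93 to 2.10, and 10 of the 11 runs stayed above an exact p of 0.05 (up to 0.254). The exception was the run without AF. AF was the only green culture below the white range, so that run is no separate support. For PB.25399 the difference was 0.43 (exact p = 0.584), and without EM it was -0.05. Of all loci set against PB.22701 in this comparison, 11.9% were called higher in green cultures (42.5% at an unadjusted p under 0.05). In the fibroblast and adipocyte library the order of these loci was the other way round, with 734 counts of PB.25558 to 7 of PB.22701.

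The proportion of the type II loci to each other was also compared between green and white cultures. PB.25558 had 15.4 to 17.5 counts for each count of PB.25399 in 5 green cultures and 5.67 in AF, against 4.52 to 12.6 in white cultures. The difference in log2 ratio was -1.04 (p = 0.0260, two-sided exact permutation test, n = 6 and 5). Without W12 it was -0.90 (exact p = 0.0619) and without W8 -0.94 (exact p = 0.0571).

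Keratin filaments are held at desmosomes and hemidesmosomes by plakins, plakophilins and other partners, and 29 loci of this kind were listed. In white cultures against tissues 12 were tested, of which 7 fell and 2 rose, with a median log2 difference of -1.34 beside -0.04 over all loci, where 29.3% of loci were called lower and 27.6% higher. In green against white cultures 10 were tested, of which 5 were lower and 1 higher, with a median of -1.15 beside 0.14 over all loci, where 28.4% were called lower and 29.1% higher. Of the 22 other keratin loci 6 were tested in white sturgeon, of which 3 fell and 1 rose with a median of -1.62, and 5 between green and white cultures, of which 1 was lower with a median of -1.05. The numbers called stand beside the same shares over all loci. In white sturgeon PB.23354 had 2 counts in cultures and 1740 in tissues, PB.25257 had 34 and 5048, and PB.25400 had 405 and 20. These keratin loci passed the count filter through the group where they were high and had to differ. Their calls and the median of -1.62 are therefore a description.

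Across the 18 libraries the level of PB.25399 on the scale of log2 CPM followed that of PB.25558 with Pearson's r = 0.887, and that of PB.22701 with r = 0.522. These are descriptions over libraries that fall into 4 groups and share a depth measure, and they carry no test. Of 2607 loci, the 5 most like PB.25399 were PB.27511 (solute carrier family 26 member 9-like, r = 0.924), PB.10245 (immediate early response gene 5), PB.21948 (clathrin light chain B-like), PB.23356 (the RNA helicase DDX39A) and PB.9882 (r = 0.893). Those most like PB.25558 were PB.23356 (r = 0.921), PB.21532 (pre-mRNA-processing factor 6), PB.27316 (F-actin-capping protein subunit beta), PB.9898 (transcription factor AP-1) and PB.14711 (AHNAK-like, r = 0.893). PB.22701 had r = 0.222 with PB.25558.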

How the data were processed

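Whole-number counts of full-length PacBio reads per transcript were deposited by the authors, without normalization, for 70537 transcripts at 13249 loci in 18 libraries. Per the study's methods, RNA was amplified by PCR, reads were clustered with IsoSeq3 v3.4.0, placed on the sterlet genome ASM1064508v1 (the aligner is not given in the sources used here), filtered with Sqanti3 v4.1 and named by blastp 2.14.1 against sterlet proteins. Amplified reads without molecular identifiers are not independent molecules, so intervals and limits of 3 counts cover counting error only. Names end at the first comma, and keratin types were read from the gene names in the study's accession list, which states none. The members, lists and tests were chosen with earlier results of these data known.

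Counts were summed per locus and per locus and protein. Main tests were edgeR 4.0.16 quasi-likelihood fits (R 4.3.3, filterByExpr, TMM) of the compared groups only, with Benjamini-Hochberg adjustment over all features and a threshold of 0.05, and diffSpliceDGE for transcript usage. Shares and log2 ratios (0.5 added to each count) went into two-sided exact permutation tests (462 splits, smallest possible p 0.00216) with scipy 1.17.1. Named transcripts held at least 5% of their locus counts or were called among the 5 with most counts, and any other was singled out after its values were seen. Named loci were the keratin loci of the accession list, the 5 loci most like each member and the locus of each marker list with most counts. PB.25400 was added after its values were seen. PB.7475, PB.18123, PB.20744 and the perilipin loci also lie outside this rule. On simulated counts edgeR called 94.2% of 4-fold changes in the white comparison and 94.1% in the green comparison. The simulation gave all loci the same dispersion of 0.2, so these rates may not hold for loci with more spread. Alternatives were DESeq2 1.42.0, other scaling, filters, pseudocounts, library sets, a replicate block and leaving out each library. No sequences were used.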

Additional observations from a re-analysis of the deposited data

Results flagged for a closer look

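Of 81 pairs of a group and a measure, 13 held a library far from the rest of its group by Dixon's criterion, which chance alone meets in about 1 of 20.

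The ampullae culture AF stood apart from the other green cultures in 3 related measures. Its percent of PB.25558 in XP_034769968.1 was 40.9, with the nearest green culture at 72.3. Its log2 ratio of XP_034769968.1 to the other transcripts of the locus was -0.53, with the nearest at 1.37, and its log2 ratio of PB.25399 to PB.25558 was -2.50, with the nearest at -3.94. The ampullae culture GA1 had 0.112% of PB.25558.10, with the nearest green culture at 0.0516%.

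The ampullae tissue was high in 3 transcripts: 0.0345% for PB.25399.119 with the nearest tissue at 0.0157%, 0.0372% for PB.25399.273 with the nearest at 0.0143%, and 0.492% for PB.25558.916 with the nearest at 0.209%. The esophagus tissue had a log2 ratio to PB.22701 of 3.24 for PB.25558 and of 0 for PB.25399, with the nearest tissue at -1.57 and -4.93, and only 10 counts of PB.22701. The barbel was low in log2 ratio to 5 type I loci, at -4.23 for PB.25558 and -7.75 for PB.25399, with the nearest tissue at -2.69 and -6.13.

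The mouth rim culture WM was low in the share of XP_033857127.2 at PB.25558, at 0.0165% with the nearest white culture at 0.0293%. Its log2 ratio of PB.25399 to PB.22701 was -8.57, with the nearest white culture at -7.61, and rested on 7 counts of PB.25399.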

How the results depend on the processing

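Both loci were lower in white cultures under every edgeR and DESeq2 alternative run. Without each library in turn the log2 difference was -2.48 to -1.90 for PB.25399 and -3.19 to -2.71 for PB.25558. With no count filter 2691 loci were called in white sturgeon and 3551 between green and white cultures, and in that comparison 585 in the first library set and 595 in the mouth rim alone. In green against white cultures PB.25399 was at -0.83 in the first library set (edgeR adjusted p = 0.518) and -2.86 in the mouth rim alone (0.0757), PB.25558 at 0.20 with transcripts named keratin only (0.648), 0.59 in the first set (0.474) and -1.79 without XP_034769968.1 (0.000243, chosen after seeing the data). The stricter filter gave 2 called transcripts and PB.25558.10 at -0.0068. The causes were not tested beyond the smaller sets of samples or transcripts in these fits.

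The log2 ratio of PB.25399 to PB.25558 differed between white cultures and tissues by 0.59 with a pseudocount of 1 (exact p = 0.0411) and by 0.43 to 0.80 without each library. Without each library it differed between green and white cultures by -1.30 to -0.90, and the ratio to PB.22701 by -0.0518 (without EM) to 0.80 for PB.25399 and 0.93 to 2.10 for PB.25558.

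Replicate numbers did not pair the samples: deviations of same-numbered libraries correlated at -0.25 to 0.05 in white sturgeon and -0.14 to 0.18 between green and white cultures. With a replicate block edgeR gave -2.42 for PB.25399 and -2.96 for PB.25558 in white sturgeon (899 loci called), and -1.69 and -0.59 between green and white cultures (1218 called). The exact test of paired shares, whose smallest p is 0.0625, gave differences of -0.0783 for PB.25399 (exact p = 0.125) and -0.841 for PB.25558 (exact p = 0.0625) in white sturgeon and -0.0180 for PB.25399 between green and white cultures (exact p = 0.125).

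Depth limits PB.25399 most, with 9 to 47 counts in each green culture, 7 to 52 in each white culture and 10 in the esophagus tissue.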
